A study of Homo sapiens with 3 samples.

Results

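The mRNAs described here are 8 transcripts of the integrated stress response whose leaders are known to carry upstream reading frames: ATF4, ATF5, DDIT3, PPP1R15A, PPP1R15B, IFRD1, SLC35A4 and CEBPB. They were chosen by gene symbol, and every probe set that lists 1 of these symbols alone was taken. That gave 9 of the 33297 probe sets on the array, 2 of them for ATF4, or 8 of 18417 named genes. All 8 passed a filter on signal that kept 12057 genes.

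The samples came from H9, an established human embryonic stem cell line grown to stay pluripotent, with no other treatment or genotype in the labels. RNA was taken from 3 sources: a polysome-bound fraction, which holds mRNAs loaded with several ribosomes, a polysome-unbound fraction, and total RNA. Each source was measured on 1 Affymetrix whole-transcript gene array, so no difference below has a replicate check and no p-value is given. The cells are a single line in culture, and the labels do not say how many cultures were pooled.

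The integrated stress response starts when a kinase phosphorylates the initiation factor eIF2, which lowers protein synthesis in general. A small class of mRNAs is then translated better, because ribosomes that would otherwise stop at the upstream frames in their leaders reach the main frame. In unstressed cells these upstream frames are known to hold ribosomes away from the main coding sequence, and in some of these mRNAs they also shorten the life of the transcript. ATF4 is the central transcription factor of the response. ATF5, DDIT3 (also called CHOP) and CEBPB are further basic leucine zipper factors, PPP1R15A and PPP1R15B bring a phosphatase back to eIF2, IFRD1 is a transcriptional coregulator, and SLC35A4 belongs to a family of nucleotide sugar transporters.

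Values are the log2 expression values as deposited, and differences are log2 values of 1 array minus another. The bound array was brighter throughout: over the 12057 genes its median lay 1.26 above that of the unbound array and 1.03 above that of total RNA, while the unbound array lay at -0.23 against total RNA. A relative difference subtracts that offset, and a gene is called apart at a relative difference of 1 (2-fold) or more. Background on an array is the level under which 95% of 459 tissue-restricted genes lay there (beta-defensins, keratin-associated proteins, receptors for odour and taste). It was 4.39 for bound RNA, 3.57 for unbound RNA and 3.76 for total RNA. The only spread that could be measured is that of a difference between arrays across the probe sets of 1 gene. Such probe sets share the same RNA and arrays, so this spread leaves out variation between preparations or arrays. For 364 genes with 2 probe sets past the filter, the median gap was 0.18 for bound minus unbound, 0.16 for bound minus total and 0.18 for unbound minus total, and 90% of gaps were under 1.05, 0.67 and 1.04. Of 15 measured pluripotency markers, 13 were above background on each of the arrays, among them SOX2 at 9.31 in bound RNA, 8.56 in unbound RNA and 9.50 in total RNA.

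ATF4 mRNA was the member furthest to the unbound side. Its brighter probe set, which lists transcript NM_182810, read 10.34 in bound RNA, 10.44 in unbound RNA and 9.60 in total RNA. Its dimmer probe set, which lists NM_001675, read 6.98 in bound RNA, 7.50 in unbound RNA and 6.28 in total RNA. Both probe sets were highest in unbound RNA and lowest in total RNA, and all 6 readings were above background. No other member was brighter on the unbound than on the bound array.

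As deposited, bound minus unbound was -0.10 for the brighter ATF4 probe set and -0.52 for the dimmer one, the first of which is smaller than the median gap of 0.18 between probe sets of 1 gene. Relative to the offset the differences were -1.36 and -1.78, that is 2.57-fold and 3.44-fold lower in bound RNA, at percentiles 5.4 and 2.86 of all genes. The probe sets differed from each other by 0.42, a gap larger than that of 66.8% of the genes with 2 probe sets. Removing the trend of the difference with signal left -0.80 for the brighter and -1.83 for the dimmer probe set, and quantile normalization gave -0.56 and -1.79. Set against genes of like genomic span, the values were -0.86 and -1.28. The 2-fold call of ATF4 therefore held for the dimmer probe set under each of these scalings and for the brighter one under none of them, while the direction was the same throughout. RefSeq lists 4 ATF4 pseudogenes, and which probes could also bind their transcripts was not tested.

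**Figure D1:**
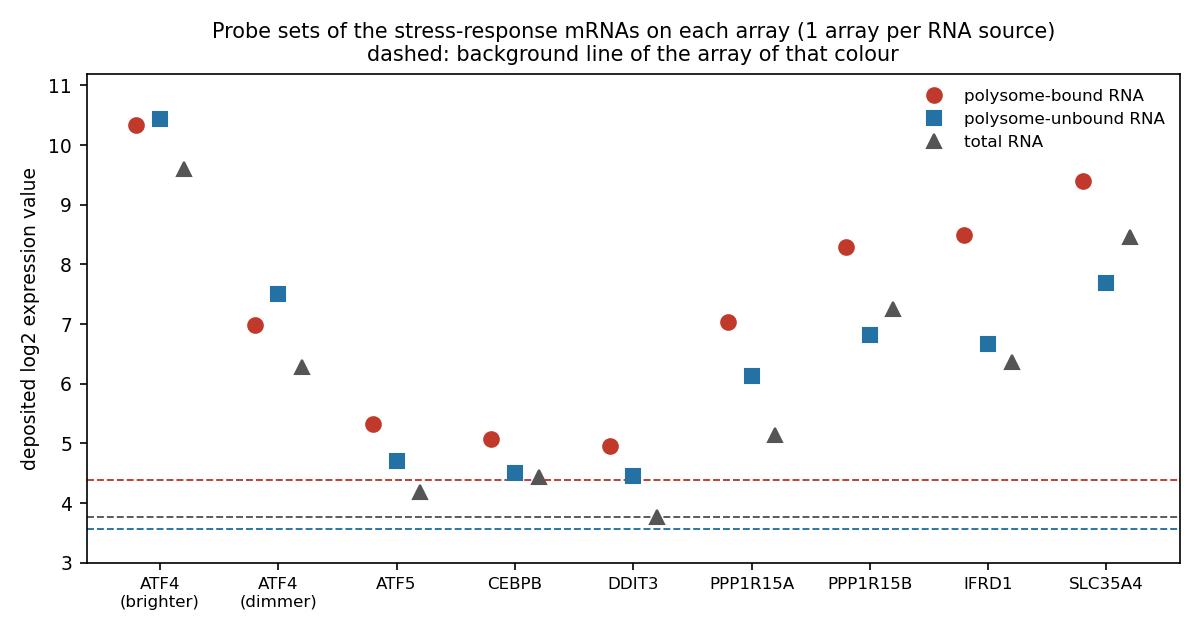
Deposited log2 values of the 9 probe sets (1 point per array) in polysome-bound, polysome-unbound and total RNA, with the background line of each array dashed in its colour. Both ATF4 probe sets are highest in unbound RNA, PPP1R15B, IFRD1 and SLC35A4 stand well above their unbound values in bound RNA, and DDIT3 touches the background line in total RNA.

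The other basic leucine zipper mRNAs were dim. ATF5, a factor close to ATF4 in sequence, read 5.32 in bound RNA, 4.70 in unbound RNA and 4.19 in total RNA. DDIT3, which promotes cell death under lasting stress, read 4.95 in bound RNA, 4.46 in unbound RNA and 3.76 in total RNA, where it lay at the background line (-0.01 from it). CEBPB, whose upstream frame is known to steer the choice between its long and short protein forms, read 5.08 in bound RNA, 4.50 in unbound RNA and 4.43 in total RNA. The margin over background was at most 0.93 for these mRNAs in bound RNA and at most 1.14 in unbound RNA. At a stricter line, the 99th percentile of those genes, DDIT3 was below it on all 3 arrays, and ATF5 and CEBPB were below it on the bound and total arrays.

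For these dim mRNAs the relative bound minus unbound difference was -0.65 (ATF5), -0.77 (DDIT3) and -0.68 (CEBPB). The tissue-restricted genes had a median of -0.55 in the same comparison, with 90% of them between -0.84 and -0.16. All of the dim members lay inside that range, so their position on the unbound side could not be told from that of genes at background. As deposited the same differences were 0.61, 0.49 and 0.58, toward the bound side.

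The phosphatase subunits lay on different sides of the offset, closer together than the 1.05 that bounds 90% of gaps between probe sets of 1 gene. PPP1R15A (GADD34), the stress-induced subunit that reverses eIF2 phosphorylation, read 7.03 in bound RNA, 6.13 in unbound RNA and 5.14 in total RNA. PPP1R15B (CReP), its constitutive counterpart, read 8.29 in bound RNA, 6.82 in unbound RNA and 7.26 in total RNA. Relative bound minus unbound was -0.36 for PPP1R15A and 0.20 for PPP1R15B, at percentiles 33 and 65.3 of all genes, so neither was apart. PPP1R15A moved to 0.14 when set against genes of like genomic span.

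IFRD1 and SLC35A4 had the highest relative differences of the members. IFRD1 read 8.49 in bound RNA, 6.67 in unbound RNA and 6.36 in total RNA. SLC35A4, whose upstream frame is itself known to encode a small protein, read 9.40 in bound RNA, 7.69 in unbound RNA and 8.46 in total RNA. As deposited, bound RNA was 3.52-fold higher than unbound RNA for IFRD1 and 3.28-fold higher for SLC35A4. Relative to the offset the differences were 0.55 and 0.45, at percentiles 81.2 and 77.3 of all genes, and under the 2-fold line. In each of 8 scaled settings, from 0.49 to 0.67 for IFRD1 and from 0.45 to 0.74 for SLC35A4, both stayed above 0.

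Counted together, 1 of the 8 members, ATF4, lay 2-fold or more to the unbound side on the relative scale, against 9.91% of all genes, and 0 of 8 lay as far to the bound side, against 6.36%. That is near the background share, so the count does not set the members apart. As deposited 0 of 8 were at least 2-fold lower, against 1.56% of all genes, and 3 of 8 were at least 2-fold higher (PPP1R15B, IFRD1, SLC35A4), against 61.4%. The median relative difference was -0.50 for the members and -0.07 for all genes, whose 25th and 75th percentiles were -0.51 and 0.40. The members spread from -1.36 to 0.55.

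**Figure D2:**
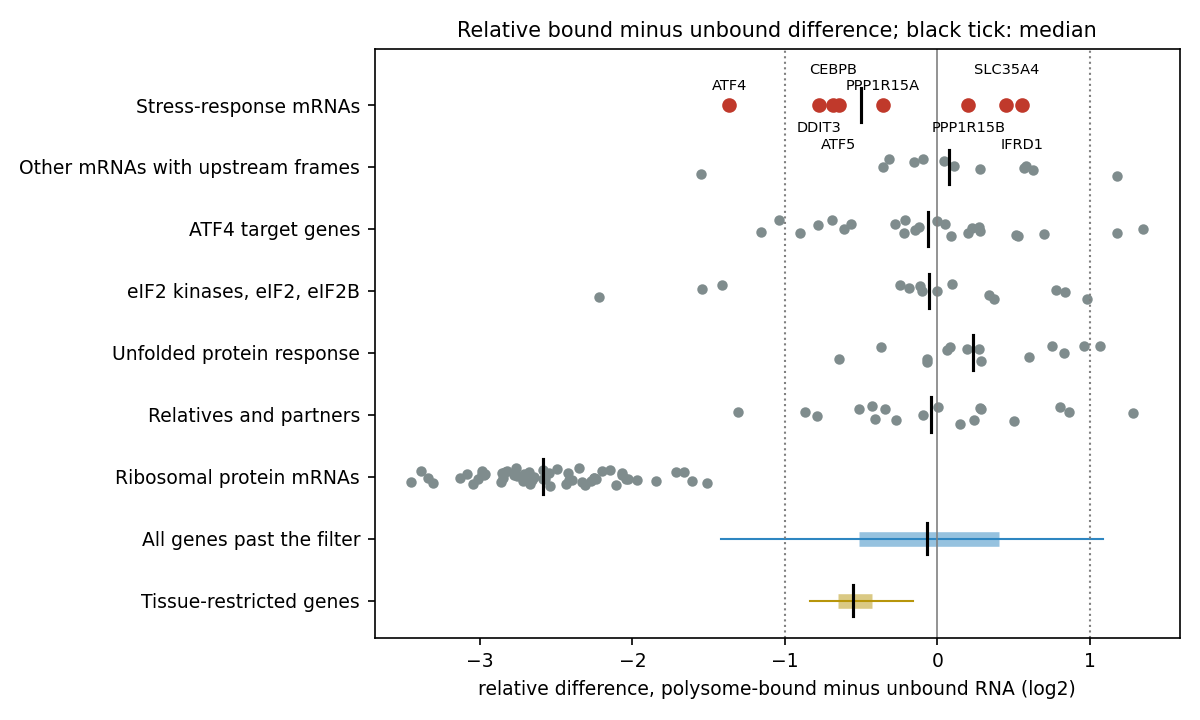
Relative bound minus unbound difference (log2) of each member, of the genes of 6 comparison lists, of all genes past the filter and of the tissue-restricted genes (thin line, 5th to 95th percentile; thick line, 25th to 75th percentile; black tick, median; dotted lines, 2-fold). ATF4 is the only member past the 2-fold line, and DDIT3, CEBPB and ATF5 lie where the tissue-restricted genes lie.

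Ribosomal protein mRNAs lay far to the unbound side, though the lowest of all genes was at -6.69. All 58 past the filter, of 59 on the array, were at least 2-fold lower on the relative scale, against 9.91% of all genes. As deposited 42 of the 58 were, against 1.56%. Their relative differences ran from -3.45 (RPS21) to -1.51 (RPL19). All 58 were below 0 after quantile normalization too, where the highest was at -0.03. The brighter ATF4 probe set, at -1.36, fell outside that range and the dimmer one, at -1.78, inside it. Many ribosomal protein mRNAs start with a C followed by pyrimidines, the terminal oligopyrimidine motif. The starts RefSeq gives (GRCh38.p14) are shown for ATF4, the member nearest to these mRNAs in its values, for the ribosomal protein mRNAs with the lowest bound minus unbound differences, RPS21 and RPL10A (-3.39), and for IFRD1. Capitals mark the transcript from its first base, and the lower case letters are the 10 bases before it.
ATF4 start 1, chr22:39520549-39520573, plus strand: cggccacggcAGCCATTTCTACTTT
ATF4 start 2, chr22:39520552-39520576, plus strand: ccacggcagcCATTTCTACTTTGCC
RPS21, chr20:62387093-62387117, plus strand: ctagctgcttCCTTTCTCTCTCGCG
RPL10A, chr6:35468391-35468415, plus strand: aagacatgctAGTCTCTTTTCCGGT
IFRD1, chr7:112450498-112450522, plus strand: tcgatcacagCTCTTCACGGGGATT

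A C at the first base followed by 4 pyrimidines was found in at least 1 listed start of 38 of 50 ribosomal protein genes (76.0%) and of 5.14% of all 27305 genes in the RefSeq table. Among the members it was found in 1 of 8, IFRD1, at 1 of its listed starts, which is the one shown. Of the other starts shown, RPS21 had it, and neither ATF4 start nor that of RPL10A did. The match says only which letters stand at the listed starts.

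Against total RNA the members split into groups with different patterns. ATF5, DDIT3, PPP1R15A and IFRD1 had positive relative differences in both fractions, which 22.4% of all genes had. ATF4 and CEBPB were below 0 in bound RNA and above 0 in unbound RNA, as were 23.1% of all genes. SLC35A4 was below 0 in both fractions, as were 39.1%, and PPP1R15B was below 0 in unbound RNA and at the offset in bound RNA. Both comparisons share the single total RNA array, and its extraction kit differed from that of the polysome pools, so RNA source and kit cannot be told apart here.

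IFRD1 was the member furthest above total RNA in the bound fraction. Its relative bound minus total difference was 1.10 (2.14-fold higher, percentile 98 of all genes), and its unbound minus total difference was 0.54. PPP1R15A had 0.87 in bound RNA (percentile 96.2) and 1.22 in unbound RNA (2.34-fold higher, percentile 94.5). ATF4 had -0.30 and -0.33 in bound RNA at its brighter and dimmer probe sets, and 1.07 and 1.46 in unbound RNA. For ATF4 in bound RNA the sign depended on the scaling, with 0.27 after removal of the signal trend and 0.37 after quantile normalization.

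DDIT3 was at background in total RNA, so its folds against it are lower bounds. As deposited DDIT3 was at least 2.28-fold higher in the bound fraction, where the array as a whole lay 1.03 (log2) above total RNA, and at least 1.63-fold higher in the unbound one. Relative to the offset the differences were 0.16 in bound RNA and 0.94 in unbound RNA. The relative differences of ATF5 were 0.10 in bound RNA and 0.75 in unbound RNA, and those of CEBPB were -0.39 and 0.29. The tissue-restricted genes had medians of -0.62 in bound RNA and -0.07 in unbound RNA, with 90% of them between -0.86 and -0.18 and between -0.32 and 0.20. CEBPB lay inside the range for bound RNA and just above it for unbound RNA, while ATF5 lay above both. SLC35A4 (-0.09 in bound RNA, -0.54 in unbound RNA) and PPP1R15B (-0.20 in unbound RNA) were close to or below the offset. Under other scalings bound minus total reached 0.30 for SLC35A4 and 0.16 for PPP1R15B.

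In bound against total RNA, 1 of 8 members (IFRD1) was at least 2-fold higher, against 2.66% of all genes, and 0 of 8 were lower, against 6.43%. In unbound against total RNA, 2 of 8 (ATF4 and PPP1R15A) were at least 2-fold higher, against 8.08%, where the brighter ATF4 probe set fell short of 2-fold after quantile normalization (0.93), with no level filter (0.99) and against genes of like span (0.90), and 0 of 8 were lower, against 10%. As deposited the counts higher were 5 of 8 in bound RNA, against 40.1% of all genes, and 0 of 8 in unbound RNA, against 5.42%. No member was 2-fold lower as deposited in bound RNA, against 0.572%, or in unbound RNA, against 16.0%. The medians of the members were 0.05 in bound RNA and 0.64 in unbound RNA, against -0.14 and -0.07 over all genes.

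**Figure D3:**
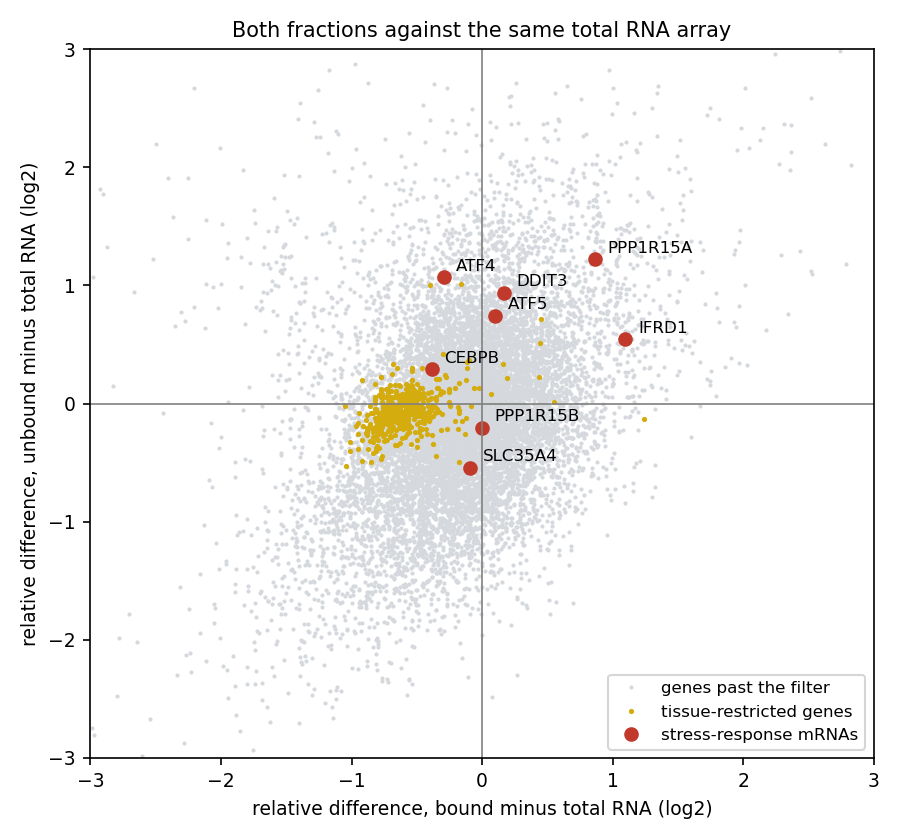
Relative differences (log2) of bound minus total RNA (horizontal) and unbound minus total RNA (vertical) for the genes past the filter, the tissue-restricted genes and the 8 members, with the brighter probe set for ATF4. PPP1R15A and IFRD1 stand to the right of the other members, PPP1R15A is also highest on the vertical axis, ATF4 stands above 0 on the vertical axis only, and 55 genes lie outside the axes.

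Markers of trophoblast and amnion lay on the same side of the offset as PPP1R15A and IFRD1. All 7 trophoblast and amnion markers past the filter, of 9 on the array, had positive relative differences in both fractions, against 22.4% of all genes. Their medians were 0.79 in bound RNA and 0.89 in unbound RNA. Their summed linear level as deposited, with the offset left in, was 1410 in bound RNA, 716 in unbound RNA and 372 in total RNA. The bound array was brighter throughout, and the sum of the 15 pluripotency markers was 10440, 4649 and 8884. The sums were 3488, 2156 and 3803 for fibroblast markers, and 1548, 1071 and 1018 for endoderm, mesoderm and neural markers. Of the 9 trophoblast and amnion markers 7, 7 and 6 were above background. All 7 past the filter were also above total RNA in both fractions under the other scalings and as deposited. Pluripotency markers lay on the other side, with medians of -0.76 in bound RNA (0.27 as deposited) and -0.79 in unbound RNA over 13 genes. Of 11 fibroblast markers past the filter 8 were below 0 in each fraction, against 62.2% of all genes in bound RNA and 54.6% in unbound RNA. Their medians were -0.62 in bound RNA and -0.49 in unbound RNA. Of 11 endoderm, mesoderm and neural markers 7 were below 0 in bound RNA and 6 in unbound RNA, against the same shares, with medians of -0.54 and -0.09. In that list the 2 highest for bound minus unbound were NES and AFP, a yolk sac and liver protein, and the 2 lowest were PAX3 and MIXL1. Against total RNA, AFP stood at 2.37 in bound RNA and 2.13 in unbound RNA, and NES at -1.74 and -2.38. PAX3 stood at 0.06 and 1.40, and MIXL1 at -0.07 and 0.82. AFP read 3.68 in total RNA, under the background line of 3.76, so its differences rest on a reading at background. In bulk RNA, fewer cells of a type and less RNA per cell cannot be told apart. The part of these differences in the values of the members was not tested.

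The promoters of PPP1R15A and IFRD1, the members with a match in the search described next, are shown. Against total RNA both had positive relative differences in both fractions with signal well above background, that of IFRD1 in unbound RNA being 0.54. A link between the match and these values was not tested. The cyclic AMP response element, to which factors of the ATF and CREB family bind, was searched on either strand as TGACGTCA. It was found in 2.25% of all genes, counting any listed start, and in 2 of the 8 members, PPP1R15A and IFRD1. Capitals mark the match, and each window shown holds 250 bases before the RefSeq start and 10 bases from it (GRCh38.p14). The windows searched, to which the shares of all genes refer, reached further into the transcript than those shown.
PPP1R15A, chr19:48872171-48872430, plus strand: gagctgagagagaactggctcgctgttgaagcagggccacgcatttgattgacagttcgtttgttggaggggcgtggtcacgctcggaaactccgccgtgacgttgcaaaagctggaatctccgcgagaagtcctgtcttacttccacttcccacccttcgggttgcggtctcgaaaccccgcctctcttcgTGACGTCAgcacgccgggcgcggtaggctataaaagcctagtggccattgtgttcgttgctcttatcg
IFRD1, chr7:112450210-112450469, plus strand: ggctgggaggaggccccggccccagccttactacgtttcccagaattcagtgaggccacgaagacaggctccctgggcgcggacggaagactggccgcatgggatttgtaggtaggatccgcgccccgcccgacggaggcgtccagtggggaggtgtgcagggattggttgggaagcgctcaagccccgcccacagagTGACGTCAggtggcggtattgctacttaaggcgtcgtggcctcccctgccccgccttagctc

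The core of the amino acid response element, the composite site of ATF4 and C/EBP factors, was searched on either strand as TGATGNAA. It was found in 4.46% of all genes and in PPP1R15B and IFRD1 among the members. In IFRD1 the match lay inside the transcript of another listed start, and in PPP1R15B it is the stretch in capitals in the window below. PPP1R15B lay at or below the offset in both fractions against total RNA, and these matches are descriptions of letters, not of sites in use.
PPP1R15B, chr1:204411808-204412067, minus strand: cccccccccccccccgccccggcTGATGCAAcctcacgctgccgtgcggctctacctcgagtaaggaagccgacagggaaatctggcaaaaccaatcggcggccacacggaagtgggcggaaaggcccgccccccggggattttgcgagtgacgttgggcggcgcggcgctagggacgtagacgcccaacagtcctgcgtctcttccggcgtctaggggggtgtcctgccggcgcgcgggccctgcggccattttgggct

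Upstream of the members, the 4 eIF2 kinases were all on the bound side of unbound RNA, under the other scalings too, with none past 2-fold on the relative scale. The highest kinase value was 1.14 after quantile normalization and 1.07 with no level filter, and as deposited all 4 were past 2-fold (1.64 to 2.25). EIF2AK4 (GCN2), which senses uncharged tRNA, had a relative bound minus unbound difference of 0.98, EIF2AK3 (PERK), the kinase of the endoplasmic reticulum, 0.83, EIF2AK2 (PKR), which senses double-stranded RNA, 0.78 and EIF2AK1 (HRI), the heme-regulated kinase, 0.37. Against total RNA all 4 were below 0 in both fractions on the relative scale, as were 39.1% of all genes. They ran from -0.41 to -0.04 in bound RNA and from -1.23 to -0.41 in unbound RNA. In bound RNA 2 of 4 were above 0 after quantile normalization, and all 4 as deposited. The list of 14 genes held the kinases, the eIF2 and eIF2B subunits, EIF2A and EIF2D. In bound against unbound RNA 3 of 14 were at least 2-fold lower, against 9.91% of all genes, EIF2A among them. At least 2-fold higher were 0, against 6.36%, and the median was -0.05. As deposited 0 of 14 were at least 2-fold lower and 11 higher, against 1.56% and 61.4% of all genes. EIF2A, an initiation factor outside the eIF2 complex, had -2.22, and EIF2S3, the gamma subunit of eIF2, had -1.54. After quantile normalization, after removal of the signal trend and as deposited, EIF2S3 had -0.21, -0.55 and -0.28. EIF2A had -2.04, -2.21 and -0.95 in the same settings.

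Genes known to be induced by ATF4 lay on both sides of the offset, 12 above it and 12 below. All 27 fixed genes were on the array and 24 passed the filter, with a median relative difference of -0.06. Of the 24, 2 were higher in the bound fraction by 2-fold or more and 2 lower, against 6.36% and 9.91% of all genes. As deposited 16 of 24 were 2-fold higher and 0 lower, against 61.4% and 1.56% of all genes, and all 24 were above 0. The lowest were ASNS, asparagine synthetase (-1.16), and SLC3A2, the heavy chain of amino acid transporters (-1.04). The highest were the transporters SLC7A5 (1.35) and SLC7A11 (1.18), the light chains that pair with SLC3A2. Against total RNA, 23 of 24 had negative relative differences in bound RNA (median -0.68), as had 62.2% of all genes, and 19 of 24 in unbound RNA (median -0.51), as had 54.6% of all genes. In bound RNA 18 of 24 were negative after quantile normalization, but 2 of 24 as deposited. On the relative scale, 3 of 24 lay below total RNA by 2-fold or more in the bound fraction, against 6.43% of all genes. In the unbound fraction 7 of 24 did, against 10% of all genes. As deposited these counts were 0 of 24, against 0.572%, and 9 of 24, against 16.0%. Above total RNA by 2-fold or more on the relative scale were 0 of 24 in either fraction. The shares of all genes there were 2.66% for bound RNA and 8.08% for unbound RNA. As deposited 2 of 24 were 2-fold higher in bound RNA, against 40.1%, and 0 in unbound RNA, against 5.42%.

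Of 14 unfolded protein response genes past the filter, 1 was higher in the bound fraction by 2-fold or more and 0 were lower. The shares of all genes were 6.36% and 9.91%, and the median of the list was 0.23. As deposited 12 were higher and 0 lower, against 61.4% and 1.56% of all genes. EDEM1, which feeds misfolded glycoproteins into degradation, had 1.07 and SEL1L, a partner of the ubiquitin ligase of that route, 0.96. DNAJB9 (-0.64), an endoplasmic reticulum co-chaperone, and HERPUD1 (-0.37) were lowest. Against total RNA 12 of 14 had negative relative differences in bound RNA (median -0.19, 0.84 as deposited), as had 62.2% of all genes. In unbound RNA 11 of 14 were negative (median -0.33), against 54.6%. At least 2-fold lower were 3 of 14 in bound RNA, against 6.43%, and 5 in unbound RNA, against 10%, with 0 higher in either. HERPUD1 had positive relative differences in both fractions, at 0.61 in bound RNA and 0.98 in unbound RNA.

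Family members and partners of the 8 mRNAs spread around the offset, with a median of -0.04. Of 18 genes, 1 was higher in the bound fraction by 2-fold or more and 1 lower, against 6.36% and 9.91% of all genes. As deposited 10 were higher and 0 lower, against 61.4% and 1.56%. The extremes were catalytic subunits of the same phosphatase that PPP1R15A and PPP1R15B recruit, PPP1CA at 1.28 and PPP1CC at -1.31. ATF2, a basic leucine zipper factor, had -0.87, and the nucleotide sugar transporter SLC35A3 had 0.86. Among 12 other mRNAs with known regulatory upstream frames, 1 was higher in the bound fraction by 2-fold or more, 1 lower, and the median was 0.08. The shares of all genes were 6.36% and 9.91%. As deposited 9 of the 12 were higher and 0 lower, against 61.4% and 1.56%. ODC1, the first enzyme of polyamine synthesis, was lowest at -1.55. It read 11.15 in bound RNA, 11.44 in unbound RNA and 10.75 in total RNA, the order of the arrays that ATF4 had. The 2-fold call of ODC1 was lost after quantile normalization (-0.23), after removal of the signal trend (-0.57) and as deposited (-0.28). AMD1, a further polyamine enzyme, had -0.36, while the kinase PRKCH (1.18) and the p53 regulator MDM2 (0.63) were highest.

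The genes whose pattern over the 3 arrays lay nearest to the brighter ATF4 probe set were HES1, GID4 and ZUP1, at distances of 0.016, 0.029 and 0.03 on the log2 scale after each array and each gene was centred. HES1 read 7.64 in bound RNA, 7.73 in unbound RNA and 6.89 in total RNA. With 3 arrays such likeness is common, and 1165 genes lay within a distance of 0.5.

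**Figure D4:**
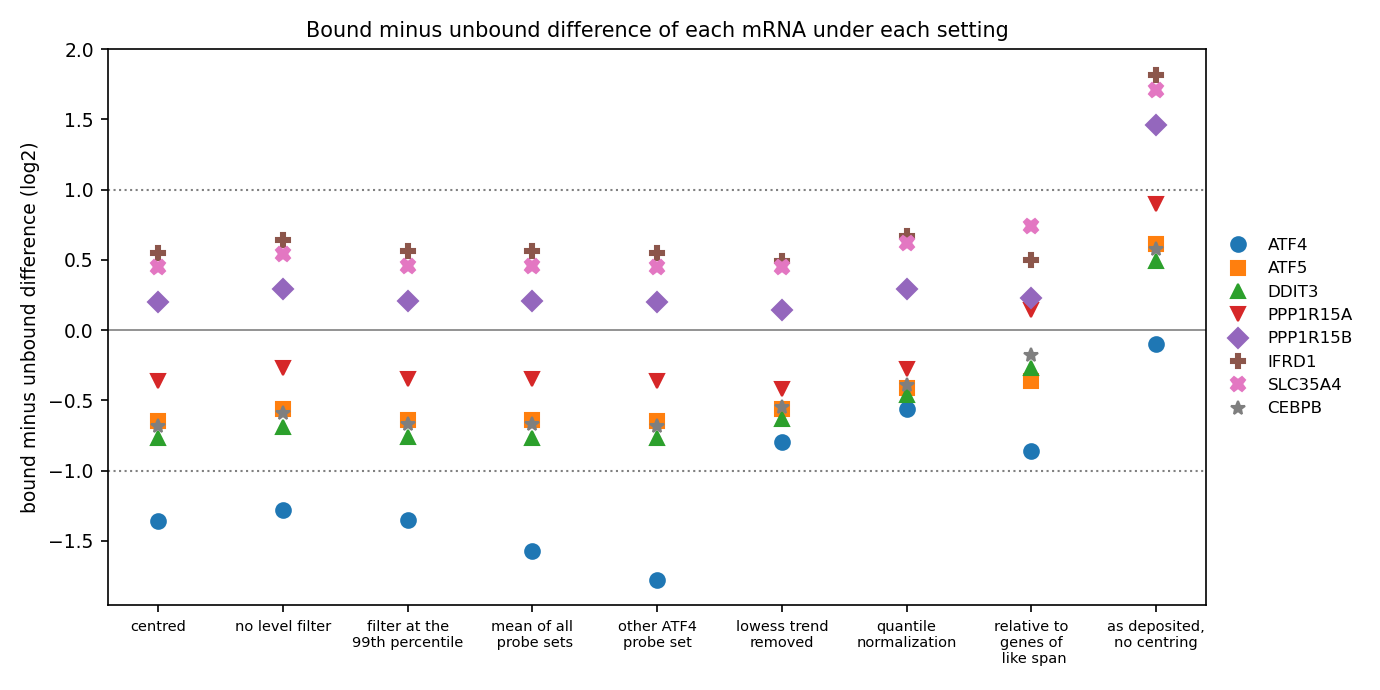
Bound minus unbound difference (log2) of each member under 9 settings, with dotted lines at 2-fold. ATF4 is the lowest member in every setting, its 2-fold call is lost after removal of the signal trend, quantile normalization, comparison with genes of like span and without centring, and IFRD1, SLC35A4 and PPP1R15B are above 0 in all.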

How the data were processed

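Polysome-bound, polysome-unbound and total RNA of H9 cells were each measured on 1 array, and groups follow the sample type in the labels. Per the labels' protocols, polysome pools and total RNA were purified with different column kits. The authors deposited 1 log2 value per probe set and array. Partek 6.5 and RMA are named in the submitters' processing notes. The scaling between arrays is unknown, and all 33297 values of the bound column appear to carry an added constant between 0.1127 and 0.1140, which centring removes. No coordinates of the array's build are given, since no build is given in the sources used here.

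Of the probe sets, 19460 list 1 symbol, 1754 several and 12083 are not listed in the platform annotation. 19429 were matched by gene ID to RefSeq names (GRCh38.p14), which also gave the promoter sequences. For a gene with several probe sets the one with the highest mean was used. Genes with a mean over the 3 arrays above 3.84 (95th percentile of 459 tissue-restricted genes) entered the comparisons. With 1 array per group there is no test. The members and gene lists were chosen with earlier results of these data known. The named genes are all members, the 2 highest and 2 lowest of each list for bound minus unbound, the eIF2 kinases, the 3 genes nearest to ATF4 and SOX2. Of the cell type lists only SOX2 and the endoderm, mesoderm and neural genes above are named. The rest is given by counts, medians and summed levels.

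Alternatives were other scalings, filters, probe set rules, thresholds of 1.5-fold and 3-fold, a lowess trend (span 0.3) and comparison within 10 classes of genomic span. The other ATF4 probe set and removal of the constant were added after seeing the data. On simulated data for bound minus unbound over 12057 genes, 98.5% of 200 genes planted with a change of 2 (log2, noise SD 0.3) were recovered, which tests the scripts only. The software was matplotlib 3.10.9, statsmodels 0.14.6, pandas 2.3.3 and numpy 2.4.6 under Python 3.11.15.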

Additional observations from a re-analysis of the deposited data

How the results depend on the processing

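No paired analysis was possible because each RNA source has 1 array. The distance of dim members from background and the lack of replicate arrays limit precision. A value counts as moved when it changed by more than the spread between probe sets of 1 gene (SD 0.45 for bound minus unbound, 0.31 for bound minus total, 0.39 for unbound minus total). The causes of the changes below were not tested. No setting turned the direction of a 2-fold call of a member. Among the other named genes, the 2-fold lower calls of ASNS and SLC3A2 in bound against unbound RNA turned to 0.11 and 0.22 as deposited (0.11 for SLC3A2 with the constant removed as well), that of PPP1CC turned to 0.05 after quantile normalization, and SLC3A2 in bound against total RNA had -1.02 on the relative scale but 0.01 as deposited.
The median of the members for bound minus unbound was -0.02 against genes of like span, 0.76 as deposited and 0.65 with the constant removed as well. For bound minus total it was 1.08 and 0.96 in the last 2 settings. The count of members at least 2-fold lower in bound than unbound RNA was 0 as deposited (with or without the constant), after quantile normalization, after lowess, against genes of like span and at 3-fold, and 4 at 1.5-fold. The count higher was 3 as deposited with or without the constant. In bound against total RNA, the count higher was 5 as deposited, 4 with the constant removed, 2 against genes of like span and at 1.5-fold, and 0 at 3-fold. In unbound against total RNA it was 0 as deposited and at 3-fold, 1 after quantile normalization, with no level filter and against genes of like span, and 4 at 1.5-fold. With the 99th percentile as background, 5 members were above it in bound RNA, 7 in unbound RNA and 5 in total RNA.
List medians for bound minus unbound as deposited were 1.21 (eIF2 kinases, eIF2 and eIF2B), 1.2 (ATF4 target genes), 1.5 (unfolded protein response), 1.22 (relatives and partners), 1.34 (other mRNAs with upstream frames) and -1.33 (ribosomal proteins, -1.56 after quantile normalization). For bound minus total they were 0.57, 0.35, 0.84, 0.86, 0.77 and -0.42 in the same order. After quantile normalization, bound minus total was -0.29 for ATF4 target genes, 0.19 for relatives and partners, 0.30 for other mRNAs with upstream frames and -0.88 for ribosomal proteins. The other list values moved by less than the spread.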
